A study of Rattus norvegicus with 6 samples.

Results

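The ATP-binding cassette (ABC) drug efflux pumps were followed in 6 rat liver samples, 3 from rats given the probiotic bacterium Lactobacillus casei Zhang and 3 from high-fat controls. The family was taken as 8 genes: Abcb1a and Abcb1b, Abcc1, Abcc3, Abcc4, Abcc5, Abcc6 and Abcg2. Members were found by name, as the probe sets whose platform annotation gives exactly 1 gene symbol out of these 8. This gave 9 of the 31042 probe sets other than controls, for 7 of the 8 genes, out of 14217 genes with such a probe set on the array. Abcb1b has no probe set of its own by this rule, since the probe set that lists it also lists Abcb1a. The family was chosen by its members' roles after an Abcb1a probe set had stood out, by its difference between the probiotic and high-fat arrays, in an earlier analysis of these data. For that reason every difference between the groups below is given as a description, and no test is read from it.

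All rats ate a fat-rich diet for 30 d to raise their cholesterol and stayed on it for another 30 d, during which 1 ml of saline was given daily into the stomach. In the probiotic group this saline carried L. casei Zhang, and in the high-fat group it was plain, so the controls shared the diet and the gavage. Strain, sex and age of the rats were not given in the sources used here, and nothing states that each liver sample came from its own animal, so any p-value measures only the spread between these samples. RNA from whole liver was hybridised to 1-colour Affymetrix arrays, on which a probe set is a group of short probes read together as 1 signal, usually near the 3' end of a transcript. Whole tissue cannot tell fewer cells of a type from less RNA in each cell.

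ABC pumps use ATP to push drugs, toxins and conjugated metabolites out of cells. In hepatocytes P-glycoprotein, the product of the Abcb1 genes, and the breast cancer resistance protein, the product of Abcg2, sit in the canalicular membrane and secrete into bile. Several multidrug resistance proteins of the Abcc branch sit in the basolateral membrane and return conjugates to blood. The nuclear receptors PXR and CAR and the stress factor NRF2 are known to raise transcription of several of these pumps.

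The sequences just before the starts of 4 pump genes are shown because these genes gave the largest differences in each direction (Abcb1a and Abcc6 upward, Abcc4 downward) or share a probe set with one that did (Abcb1b). Each run is the 250 bases before a RefSeq start site, assembly GRCr8, written 5' to 3' on the gene's strand. Capitals mark the GC box GGGCGG, to which factors of the Sp1 type bind, and the CCAAT box CCAAT, to which NF-Y binds, each searched on both strands.
Abcb1a, chr4:26397649-26397898, minus strand: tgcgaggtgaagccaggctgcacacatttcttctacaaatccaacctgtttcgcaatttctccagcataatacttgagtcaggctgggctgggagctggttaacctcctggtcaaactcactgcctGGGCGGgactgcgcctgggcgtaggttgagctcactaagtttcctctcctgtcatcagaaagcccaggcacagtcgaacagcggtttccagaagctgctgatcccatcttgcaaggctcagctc
Abcb1b, chr4:26280030-26280279, minus strand: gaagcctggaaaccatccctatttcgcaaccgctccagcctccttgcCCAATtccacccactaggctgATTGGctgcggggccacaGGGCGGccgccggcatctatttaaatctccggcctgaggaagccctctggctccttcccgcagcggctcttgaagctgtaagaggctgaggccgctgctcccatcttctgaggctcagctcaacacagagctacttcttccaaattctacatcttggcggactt
Abcc6, chr1:105637896-105638145, minus strand: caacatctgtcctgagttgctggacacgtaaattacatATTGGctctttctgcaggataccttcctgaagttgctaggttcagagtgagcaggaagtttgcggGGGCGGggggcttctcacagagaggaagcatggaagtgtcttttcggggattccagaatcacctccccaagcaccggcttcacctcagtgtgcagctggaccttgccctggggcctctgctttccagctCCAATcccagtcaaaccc
Abcc4, chr15:102181365-102181614, minus strand: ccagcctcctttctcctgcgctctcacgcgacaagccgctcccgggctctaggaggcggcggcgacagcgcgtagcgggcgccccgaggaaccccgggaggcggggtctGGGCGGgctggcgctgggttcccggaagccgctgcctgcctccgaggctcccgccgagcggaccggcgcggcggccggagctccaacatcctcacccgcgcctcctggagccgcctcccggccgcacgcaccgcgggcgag

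Of the 8 genes, 6 matched the RefSeq table of promoters. A GC box was found in 6 of these 6, against 30.5% of all 33469 promoters of the same length. The share of G and C in these windows ran from 54.0% (Abcb1a) to 77.6% (Abcc4), above that of 58.2% and 98.0% of all promoters. The GC box holds only G and C, and its count was not adjusted for this share. A CCAAT box was found in Abcb1b and Abcc6, against 34.0% of all promoters. The Abcb1b window held it on each strand, 203 to 199 and 182 to 178 bases before the start, with a GC box 164 to 159 bases before it, whereas the Abcb1a window held, of the motifs searched, only the GC box, 124 to 119 bases before its start. The letters TATAAA, the antioxidant response core TGACNNNGC and the nuclear receptor half-sites AGTTCA and AGGTCA, searched on both strands, were in 0 of the 6 windows and in 12.9%, 10.1%, 12.2% and 14.1% of all promoters. Abcb1a and Abcb1b are neighbours, with 0 protein-coding genes between them in that assembly. Their windows, taken to 50 bases after the start, shared as their longest run TACATCTTGGCGGAC, 15 bases that begin 30 bases after the Abcb1a start and 17 bases before the Abcb1b start.

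The pumps differed among themselves in direction. The probe sets for Abcb1a and Abcc6 had higher means in the probiotic group, those of Abcc4 and Abcc1 lower ones, those of Abcg2 and Abcc3 lay close to 0, and those of Abcc5 went both ways. Of the 9 probe sets 8 passed the filter on dim signal, which asks for a mean log2 signal of at least 6.30. The Abcc3 probe set fell 0.27 below this limit, and an Abcc5 probe set lay 0.09 above it. Of the 8 tested with limma, 0 passed an adjusted p under 0.05, and over all 18625 probe sets tested the share called was 0.0215%. At an unadjusted p under 0.05 there was 1, a probe set of Abcb1a, beside 6.85% of all probe sets. This count was 3 without high-fat sample 2, 2 without high-fat sample 1 or probiotic sample 2, and 0 with the Actb signal gap described below in the fit. Over all probe sets tested the count was 1275 in the main fit and 795, 1525, 830 and 423 in these fits, in that order. For the pumps it was also 3 with weights for the arrays or without both samples numbered 2, and 2 with the replicate number as a block. Over all probe sets tested these fits gave 1711, 703 and 1527, in that order. The median log2 difference was 0.17 over these 8 and 0.0042 over all probe sets tested, with 5 of the 8 higher. Over all 9 the median was 0.062, and it was -0.23 or 0.37 when high-fat sample 2 or 3 was left out. Because the contrast was known when the family was chosen, nothing is read from these shares.

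**Figure D1:**
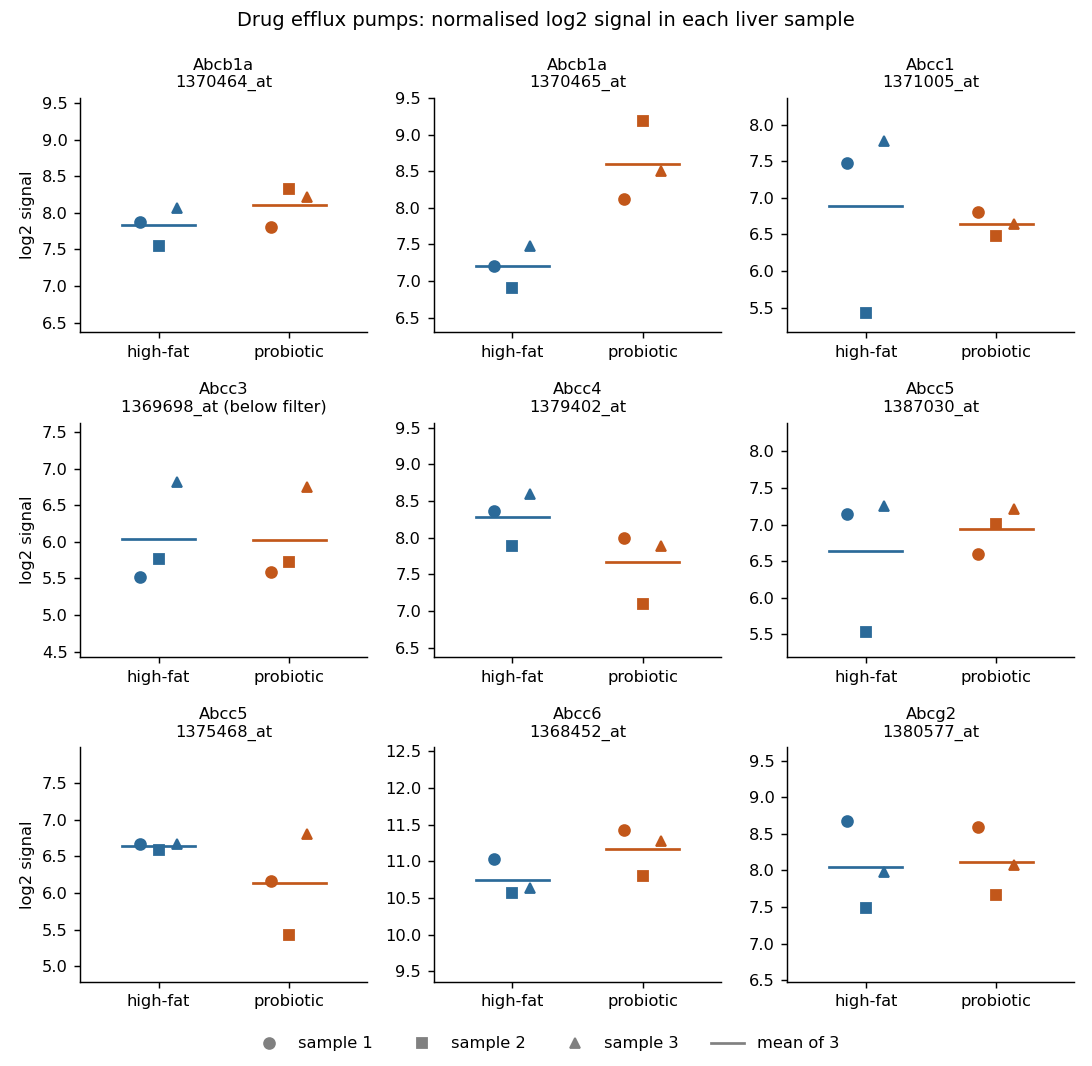
Normalised log2 signal (y axis, a span of equal size in each panel) of the 9 pump probe sets in the high-fat and probiotic samples; symbols mark samples 1, 2 and 3 of each group and bars the mean of 3. The groups are apart only for Abcb1a probe set 1370465_at, at 8.12 to 9.19 against 6.91 to 7.48.

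Abcb1a, which encodes the P-glycoprotein that expels a wide range of hydrophobic drugs, was read by 2 probe sets that differed in size. Probe set 1370465_at had deposited intensities of 267.4, 558.8 and 337.4 in probiotic samples 1, 2 and 3 and of 138.2, 135.8 and 140.0 in the high-fat samples. All 3 probiotic samples lay above all high-fat samples, and probiotic sample 2 stood highest. The high-fat intensities were close together as deposited but spread over 0.57 log2 units after normalization. On the normalised log2 scale the means were 8.60 ± 0.541 and 7.20 ± 0.285 (SD, n = 3 each), a difference of 1.40 (SE 0.335), or 2.64-fold, and 1.33 without normalization between arrays. Groups did not overlap, with the probiotic group higher, for 1 of the 8 pump probe sets tested and for 6.02% of all probe sets tested.

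Probe set 1370464_at of Abcb1a did not separate the groups. Its deposited intensities were 209.7, 288.1 and 273.6 with the probiotic and 226.8, 201.7 and 238.4 in the controls, so that probiotic sample 1 lay below high-fat samples 1 and 3. The log2 means were 8.11 ± 0.275 and 7.83 ± 0.257 (SD, n = 3 each), a difference of 0.28 (SE 0.278). The difference read by 1370465_at was thus larger by 1.12 log2 units for the same gene, and the mean of both was 0.84. Both probe sets had their highest value in probiotic sample 2 and their lowest in high-fat sample 2. After each profile was centred on its own mean, they lay 0.593 log2 units apart, as a root mean square over the 6 samples.

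A measure of RNA integrity ordered the samples as 1 of the 2 Abcb1a probe sets, 1370465_at, did. The gap between the Actb control signals read at the 3' and at the 5' end, which grows as transcripts shorten, was 2.08, 3.07 and 2.39 log2 units in probiotic samples 1, 2 and 3 and 1.95, 1.48 and 1.97 in the high-fat samples. The order of the 6 samples by this gap, from high-fat sample 2 to probiotic sample 2, was the order of 1370465_at too. Part of this match was fixed in advance, since the gap and this probe set both placed every probiotic sample above every high-fat sample. High-fat samples 1 and 3 also nearly tied in the gap, at 1.95 and 1.97. The same order held for 1 of the 9 pump probe sets and for 0.596% of all probe sets tested. Of all those tested, only 6.02% had the groups apart with the probiotic higher. The gap averaged 2.51 ± 0.504 with the probiotic against 1.80 ± 0.279 without it (SD, n = 3 each; exact two-sided permutation p = 0.1, the smallest that 3 against 3 allows). The same gap for Gapdh averaged 1.17 ± 0.463 against 0.59 ± 0.14 (SD, n = 3 each, with an exact permutation p = 0.2). When the fit took the Actb gap as covariate, the difference of 1370465_at was 0.66 in place of 1.40, and that of 1370464_at turned to -0.12. Every probiotic sample had a larger gap than every high-fat sample, so this fit cannot tell the gap and the treatment apart. With high-fat sample 2 and probiotic sample 2 both left out, whose arrays had the lowest correlation of any pair over the probe sets tested (0.8848), 1370465_at had a difference of 1.01 and 1370464_at of 0.04.

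**Figure D2:**
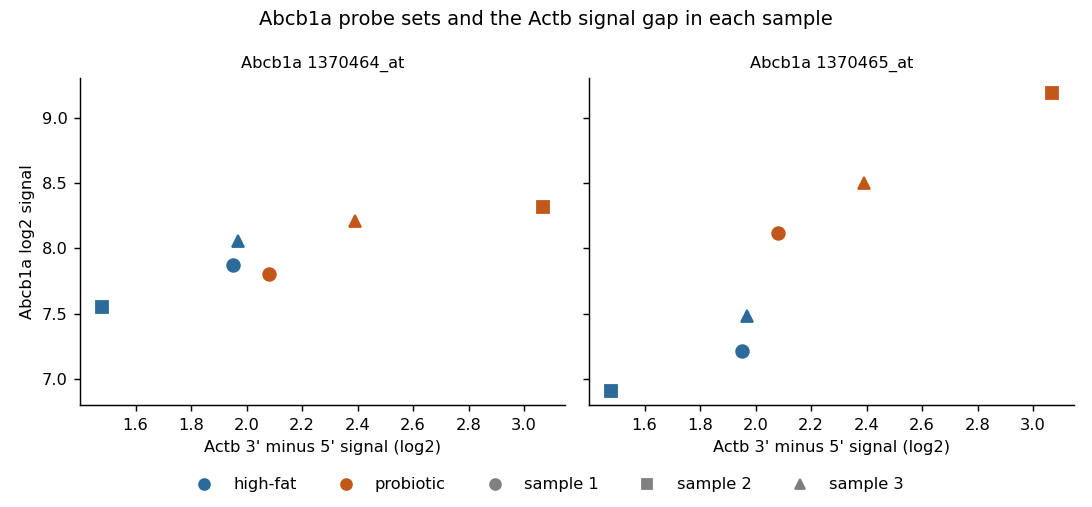
Normalised log2 signal of the 2 Abcb1a probe sets (y axis) against the Actb 3' minus 5' signal gap in log2 units (x axis), 1 point per sample, coloured by group. Probiotic sample 2 has the largest gap (3.07) and the highest Abcb1a signal on both probe sets, and high-fat sample 2 the smallest gap (1.48) and the lowest signal.

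The neighbouring gene Abcb1b, the second P-glycoprotein gene of rodents, could not be read alone. Probe set 1370583_s_at lists both Abcb1a and Abcb1b, and its signal cannot be divided between them. Its log2 signal was 7.76, 8.48 and 8.29 in probiotic samples 1, 2 and 3 and 7.34, 8.64 and 9.13 in the high-fat samples. The groups overlapped, with both the lowest and the highest value among the high-fat samples.

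Abcc6 encodes MRP6, a basolateral pump of hepatocytes whose loss causes the calcification disorder pseudoxanthoma elasticum. Its intensities were 2698, 1789 and 2496 in probiotic samples 1, 2 and 3 and 2048, 1461 and 1623 in the high-fat samples. The ranges overlapped, since probiotic sample 2 lay below high-fat sample 1. The log2 difference was 0.43 (SE 0.225), or 1.34-fold, from means of 11.17 ± 0.33 and 10.74 ± 0.251 (SD, n = 3 each). It was above 0 under each of 17 other settings, from 0.29 without probiotic sample 1 to 0.70 with the Actb gap in the fit.

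Abcc4 encodes MRP4, a basolateral pump for bile acids and cyclic nucleotides. It had intensities of 245.3, 117.4 and 210.9 with the probiotic and 320.2, 246.0 and 365.2 in the controls. As deposited the groups did not overlap, but probiotic sample 1 and high-fat sample 2 nearly tied, at 245.3 and 246.0. On the normalised log2 scale probiotic sample 1, at 8.00, lay just above high-fat sample 2, at 7.89, and probiotic sample 2 was lowest, at 7.10. The log2 difference was -0.62 (SE 0.331), or 1.53-fold lower, from 7.66 ± 0.489 against 8.28 ± 0.359 (SD, n = 3 each). It was below 0 under each of the 17 other settings but ranged widely, from -0.84 without high-fat sample 2 to -0.30 with the Actb gap in the fit, and was -0.33 without probiotic sample 2.

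Abcc1 encodes MRP1, which exports glutathione conjugates and leukotriene C4. Its log2 signal was 6.80, 6.48 and 6.64 in the probiotic samples and 7.47, 5.42 and 7.77 in high-fat samples 1, 2 and 3. The probiotic samples lay close together, within 0.32, inside a high-fat range of 2.35. The difference of -0.25 (SE 0.603) changed with single samples: it was -1.01 once high-fat sample 2, the lowest, was left out, and its sign turned, to 0.053 or 0.22, when high-fat sample 1 or 3 was left out instead. The residual SD of 0.91 was above that of 93.3% of all probe sets tested.

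Abcc5 encodes MRP5, a pump for cyclic nucleotides, and its 2 probe sets had opposite signs. Probe set 1387030_at read 6.60, 7.01 and 7.22 with the probiotic and 7.14, 5.54 and 7.25 in the controls, a log2 difference of 0.30 (SE 0.52). Probe set 1375468_at read 6.17, 5.43 and 6.81 with the probiotic and 6.67, 6.59 and 6.67 in the controls, a difference of -0.51 (SE 0.493). The first had its low value in high-fat sample 2 and the second in probiotic sample 2, and the groups overlapped on both. The first turned to -0.26 without high-fat sample 2 and to -0.44 with the Actb gap in the fit, and the second was -0.16 without probiotic sample 2 and -0.015 with that gap in the fit. The mean of both was -0.11.

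Abcg2, the canalicular pump for sulfated conjugates and urate, had log2 signals of 8.60, 7.67 and 8.07 in probiotic samples 1, 2 and 3 and 8.68, 7.49 and 7.98 in the high-fat samples. Each group held a high, a middle and a low sample, and the ranges nearly coincided. The difference was 0.062 (SE 0.369). It turned to -0.23 or -0.18 when high-fat sample 2 or probiotic sample 1 was left out, and to -0.018 without normalization between arrays, and was 0.38 without high-fat sample 1.

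Abcc3 encodes MRP3, the basolateral pump for glucuronides that is known to increase when bile flow is blocked. Its log2 signal was 5.59, 5.72 and 6.75 with the probiotic and 5.52, 5.77 and 6.81 in the controls, a difference of -0.011 below the filter, with no test. Sample 3 was highest in each group. Its sign turned under 6 of the 17 other settings, and the values ranged from -0.38 to 0.38.

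**Figure D3:**
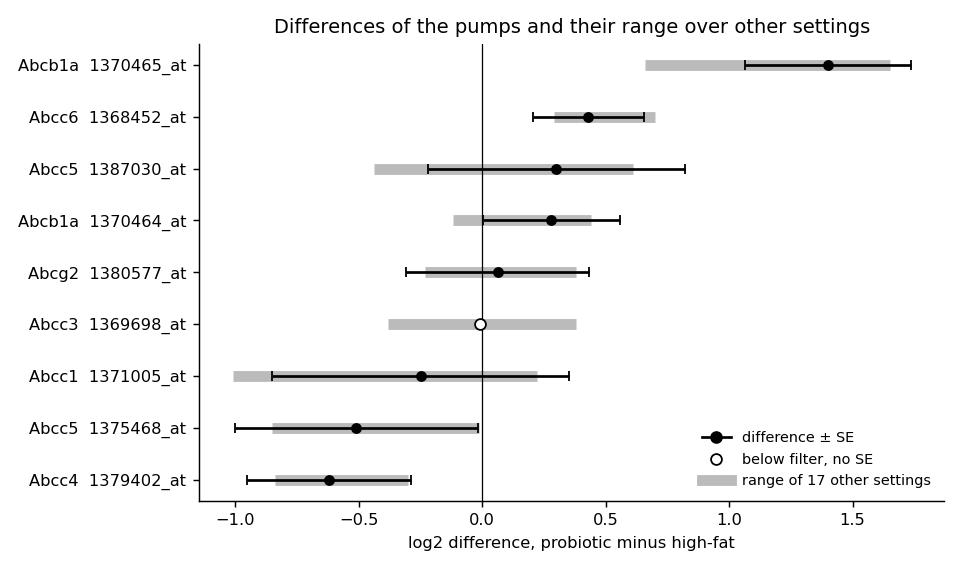
Log2 difference, probiotic minus high-fat, of each pump probe set (x axis); points are the difference with its SE from limma, the open point is Abcc3, which was below the filter, and grey bars span the values under 17 other settings. Only Abcb1a 1370465_at, Abcc6, Abcc4 and Abcc5 1375468_at have grey bars on 1 side of 0.

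High-fat sample 2 was low on most of the pumps. It had the lowest value of the 6 samples on 6 of the 9 pump probe sets, against 26.1% of all probe sets tested, and the highest on 0, against 23.8%. High-fat sample 3 was highest on 4 of the 9, against 11.5% of all. The median residual SD of the 8 tested pump probe sets was 0.461, against 0.365 for all probe sets tested. Abcb1a 1370464_at and Abcc6 were the steadiest, with residual SDs of 0.266 and 0.293, and Abcc1 and Abcc5 1387030_at the least steady, with 0.91 and 0.715.

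The genes with the nearest profiles were listed for each Abcb1a probe set. Nearest to 1370464_at, the brighter of the pair, were Tob1, Taf2, Ddx47, Cox14 and Tp53bp1, at root mean square distances of 0.0469 to 0.0659 log2 units over the 6 samples, out of 10567 genes. Nearest to 1370465_at, a comparison added after its values were seen, were Tent5c (0.138), Kdm6b (0.235), Tigd3 (0.243), Cadm1 (0.248) and Paqr7 (0.251). Since likeness was taken over all 6 samples, these genes also share the difference between the groups by choice.

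Other transporters and the genes around the pumps also gave no call. Of the 35 other ABC transporters listed, 28 were tested and 0 passed with limma (1 at an unadjusted p under 0.05), with 11 higher, 17 lower and a median log2 difference of -0.12, against 0.0042 for all probe sets. Of 3 canalicular transporters named by role, Abcc2, the conjugate export pump, had -0.25 (SE 0.22), Abcb4, the phospholipid flippase, 0.20 (SE 0.213), and Abcb11, the bile salt export pump, 0.24 (SE 0.292). A list of 17 solute carriers, mainly for uptake, also held the exporters Slc47a1, Slc51a and Slc51b, which were not tested. Of its genes 11 were tested, 0 passed (1 unadjusted) and the median was 0.0013. Among them the organic anion carrier Slco1a4 had 0.62 on its brightest probe set and -0.0095 on another, and the liver carrier Slco1b2 had 0.072 and -0.078.

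Regulators of pump genes differed among themselves in direction. Of 21 listed, 18 were tested and 0 passed with limma (5 at an unadjusted p under 0.05), with 11 higher, 7 lower and a median of 0.18. The unadjusted count was 2 without high-fat sample 2, 3 without high-fat sample 3 or probiotic sample 2 or 3, and 0 with the Actb gap in the fit. Over all probe sets tested it was 1275 in the main fit and 795, 1171, 830, 892 and 423 in these fits, in that order. Nr1i2, which encodes PXR, had a log2 difference of -0.10 (SE 0.255). Nr1i3, which encodes CAR, had 0.58 (SE 0.436). Nfe2l2, which encodes NRF2, had -0.054 (SE 0.36), and Ahr, the dioxin receptor gene, 0.31 (SE 0.392) with 0.34 on a dim probe set. For all 4 the groups overlapped.

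A list of drug metabolism genes drawn up for PXR and CAR had 16 of 24 tested, 0 passing (3 unadjusted), 4 higher, 12 lower and a median of -0.054. Cyp2b1, Cyp2b2, Ugt1a1 and Gsta2 were among those with no probe set of 1 symbol, so the median leaves them out. The unadjusted count was 6 or 1 when probiotic sample 1 or 2 was left out, beside 1772 or 830 over all probe sets tested. The drug-metabolising enzyme Cyp3a9 had a log2 difference of 0.60 (SE 0.143) and Cyp3a23-3a1 of 0.22 (SE 0.108), and the groups did not overlap for either. These were the only 2 of the 16 tested without overlap, beside 12.7% of all probe sets tested. NRF2 targets had 14 of 16 tested, 0 passing (2 unadjusted), 4 higher, 10 lower and a median of -0.19, and the unadjusted count was 4 without probiotic sample 1. Nqo1, the quinone reductase, had -1.43 (SE 0.287), with the groups apart, 1 of 2 such genes among the 14 tested. Gclc, an enzyme of glutathione synthesis, had 0.42 (SE 0.275), and 0.04 on another probe set. Conjugating enzymes, which make the glutathione, glucuronide and sulfate conjugates that MRP pumps carry, had 24 of 28 tested, 0 passing (0 unadjusted), 11 higher, 13 lower and a median of -0.0089.

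**Figure D4:**
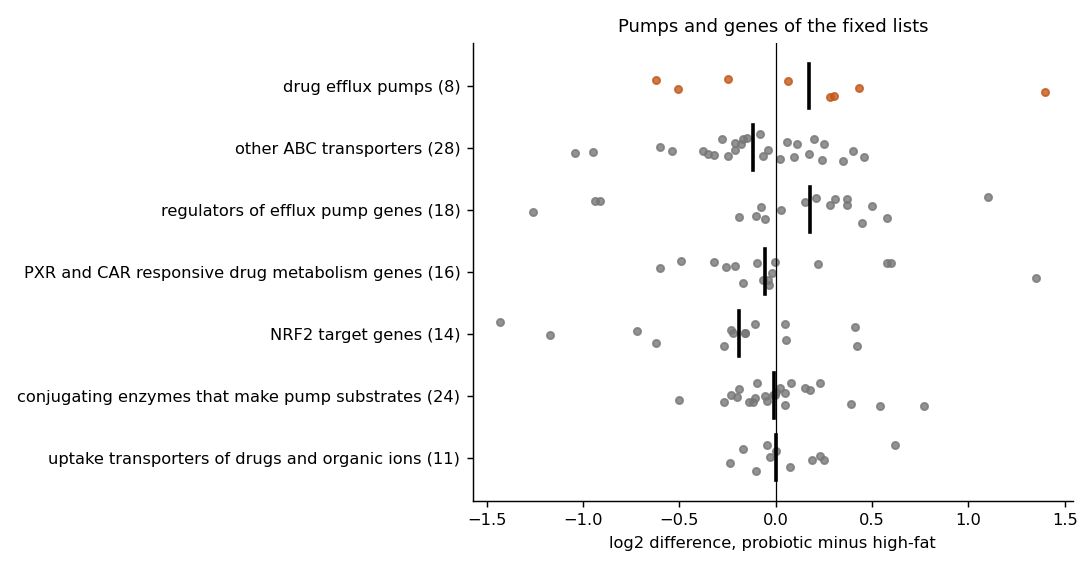
Log2 differences, probiotic minus high-fat (x axis), of the tested pump probe sets (top, orange) and of the brightest probe set of each tested gene in 6 lists of related genes (grey); vertical bars are medians and numbers in brackets count the points. The pump median is 0.17 and the list medians run from -0.19 to 0.18.

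Markers of the liver's cell types were read in the same samples. For 9 hepatocyte markers with a probe set, all tested, 5 were higher and 4 lower, with a median difference of 0.016, and their summed intensity ran from 428400 to 479500 in the probiotic and from 391900 to 722500 in the high-fat samples. Kupffer cell and macrophage markers were lower in 10 of 10, by a median of -0.40, with sums of 13340 to 16640 against 16340 to 21130. Endothelial markers, from a cell type in which Abcb1a and Abcg2 are also known to be active, were higher in 5 of 9 tested, with a median of 0.029 and sums of 6425 to 11220 against 7496 to 8626. Probiotic sample 2, with the highest Abcb1a signal, had the highest endothelial sum. Probiotic samples 1 and 3, at 6425 and 7461, had sums below those of all high-fat samples. Blood and erythroid markers were higher in 5 of 6 tested (median 0.67), with sums of 31210 to 54990 against 20340 to 27010, and probiotic sample 2 was again highest. Cholangiocyte markers were higher in 4 of 5 tested (median 0.12; sums of 2104 to 2453 against 1589 to 2100), stellate cell and fibroblast markers in 3 of 9 (median -0.067; 5455 to 6009 against 5257 to 6847) and lymphocyte markers in 3 of 7 (median -0.21; 729.5 to 1335 against 983.2 to 1555). With limma 0 of these markers passed the adjusted test (1 hepatocyte, 1 Kupffer cell and 3 blood markers at an unadjusted p under 0.05), and none was listed at 0. Of all probe sets tested, 6.85% had an unadjusted p under 0.05 and 50.5% were higher with the probiotic. The part of these cell types and of RNA integrity in the pump values was not tested.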

How the data were processed

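Biotin-labelled cRNA was made from 8 ug of total RNA per the labels' protocols. The authors deposited 1 linear intensity per probe set and array. The scaling software was not given in the sources used here. Trimmed of 2% of probe sets at each end, the mean was 500.3 for all 6 arrays, as global scaling would give, and the median intensity ran from 90.05 to 146.9. The number of arrays limits the precision.

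Computed here were log2(intensity + 16) and quantile normalization of the 6 arrays, which removes overall differences between groups. Neither the 57 control probe sets were tested nor those with a mean below the 40th percentile, which left 18625. Folds refer to the log2(intensity + 16) scale, which understates changes at low signal. The fit used limma 3.58.1 under R 4.3.3 (lmFit, eBayes with an intensity trend, two-sided, Benjamini-Hochberg adjustment, threshold 0.05). On data simulated for this comparison, with 200 of 18625 probe sets changed in 20 runs, 10.2% of 2-fold and 50.9% of 4-fold changes were recovered, with 3 false calls per run.

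Probe sets were named from the platform annotation, with symbols checked through gene identifiers against the RefSeq table of assembly GRCr8 (0 changed). A gene outside the pump family is given by its brightest probe set, and those with values were fixed by role, except the genes nearest to Abcb1a, which likeness chose, and those said to be picked after their values were seen. The members and lists were chosen with earlier results of these data known. Upstream sequences came from RefSeq. The alternatives were other normalizations, pseudocounts (1, 64) and filters, the variance model, array weights, a block, the Actb gap as a covariate and samples left out. Figures were drawn with matplotlib 3.10.9.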

Additional observations from a re-analysis of the deposited data

How the results depend on the processing

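With limma the count of pump probe sets past the adjusted threshold was 0 under the main setting and under each of the 17 others. The count over the whole table was 4 under the main setting and 3 to 12 with 1 sample left out, 12 of them without probiotic sample 1 and, with high-fat sample 1 left out, 9. It was 3 to 6 under the other settings. Among the lists of related genes the count was 0 throughout, except for the list drawn up for PXR and CAR. There leaving out single samples gave 0 to 1: Alas1, the first enzyme of heme synthesis, passed with limma without probiotic sample 1 (log2 difference 2.11, adjusted p = 0.0357). At an unadjusted p under 0.05 the other ABC transporters, the solute carriers and the conjugating enzymes each had 0 to 2 genes over all settings. The median over the 9 pump probe sets, 0.062 under the main setting, changed sign with the setting: it was -0.23 (3 of 9 higher) without high-fat sample 2, -0.094 with the Actb gap in the fit, -0.018 without normalization between arrays and 0.37 (7 of 9 higher) without high-fat sample 3. The spread of this median between replicates was 0.355. The sign turned for Abcb1a 1370464_at under 1 of 17 alternatives, Abcc1 under 2, Abcc5 1387030_at under 3, Abcg2 under 3 and Abcc3 under 6. The adjusted p of Abcb1a 1370465_at ran from 0.241 to 0.999.

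Samples of the 2 groups share replicate numbers. Deviations from the group means correlated at 0.144, 0.027 and 0.0774 for the samples numbered 1, 2 and 3, and 5 of the 6 samples correlated best with their own number. This is a hint from the data, not from the design. With the replicate number as a block the whole-table count was 4 and that of the pumps 0.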

Other observations

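A few genes around the pumps were picked out once their values were known. Among the regulators of pump genes, groups did not overlap for 5 of the 18 tested, beside 12.7% of all probe sets tested, and 0 of these 5 passed the adjusted test with limma. Rxra, the partner with which PXR and CAR bind DNA, had a log2 difference of -0.94 (SE 0.273), and Rxrb, its close relative, 1.10 (SE 0.414). Arnt, the partner of the dioxin receptor, had -1.26 (SE 0.415). Hnf4a, a factor that maintains hepatocyte genes, had 0.28 on its brightest probe set and -0.61 and -0.39 on the other 2. Sp1, which binds GC boxes, had 0.37 on its brightest probe set and from -0.99 to 0.54 on the other 4. Abca7, an ABC transporter of lipids, lay below the signal filter, with a log2 mean of 7.11 for the probiotic samples against 4.70 for the controls, and was not tested.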
